A study of Homo sapiens with 6 samples.

Results

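MicroRNA host genes are the genes whose primary transcripts carry a microRNA hairpin. They were taken as the rows of the gene table whose symbol starts with MIR, goes on with digits, capital letters or hyphens, and ends with HG, which gave 62 of the 58735 genes listed. Of these 62 host genes, 16 were expressed at a mean of at least 0.5 FPKM (fragments per gene length and library size) over the 6 libraries, 24 lay above 0 but below that level, and 22 were listed at 0 in every library. Expression had been measured by RNA-seq in HCT116, a human colorectal cancer cell line labelled as wild type. The cells were transfected with a control (CTR, 3 libraries) or with 50 nM miR-8485 mimics (miR-8485, 3 libraries) and collected after 48 h. The study asked how miR-8485 alters these cells, and the sequence and dose of the control were not given in the sources used here. In the methods of the study, the libraries of each group come from independent biological replicates. All are of this 1 cell line.

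A microRNA starts as a hairpin in a longer transcript, which in many host genes is a long noncoding RNA. DROSHA and DGCR8 cut the hairpin out in the nucleus, exportin 5 carries it to the cytoplasm, DICER1 trims it to the mature strand, and an Argonaute protein uses that strand to find mRNAs, mainly through the seed at bases 2 to 8. A host gene can be followed in RNA-seq of long RNA by its spliced transcript, but the level of that transcript is not the level of the mature microRNA, which was not measured in these libraries. A mimic is a synthetic double-stranded RNA that brings the mature strand into the cell without a host gene.

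Sequences of the mimic strand and of mature microRNAs from host genes that passed the test described later are given to show what the described transcripts carry. The strand of the mimic came from the supplementary methods of the study, and the others from RefSeq (GRCh38.p14). Capitals mark the seed, bases 2 to 8.
miR-8485 mimic: cACACACAcacacguau
hsa-miR-100-5p: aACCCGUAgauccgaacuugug
hsa-let-7a-5p: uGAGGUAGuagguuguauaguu
hsa-miR-125b-5p: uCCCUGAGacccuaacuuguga
hsa-miR-17-5p: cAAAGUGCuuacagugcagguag
hsa-miR-18a-5p: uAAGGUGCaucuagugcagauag
hsa-miR-19a-3p: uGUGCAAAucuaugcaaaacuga
hsa-miR-20a-5p: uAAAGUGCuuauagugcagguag
hsa-miR-19b-3p: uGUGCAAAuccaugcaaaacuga
hsa-miR-92a-3p: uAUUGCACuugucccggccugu
hsa-miR-34a-5p: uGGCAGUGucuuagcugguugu
hsa-miR-210-3p: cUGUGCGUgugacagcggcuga
hsa-miR-600: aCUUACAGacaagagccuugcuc

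The first 3 microRNAs lie in MIR100HG, the next 6 in MIR17HG, and the last 3 in MIR34AHG, MIR210HG and MIR600HG. Within MIR17HG, miR-17-5p and miR-20a-5p shared the seed AAAGUGC, and miR-19a-3p and miR-19b-3p shared the seed GUGCAAA. The let-7 seed GAGGUAG stood in 2 expressed host genes, MIR100HG and MIRLET7BHG. In all, 30 hairpins lay within the 16 expressed host genes, at most 6 in 1 gene, MIR17HG. RefSeq listed 49 mature microRNAs for 15 of the 16 host genes, with 43 distinct seeds, of which 0 were the mimic seed ACACACA. For the hairpins that could be placed, the host transcripts of GENCODE release 44 put 14 in an intron, 12 in an exon and 2 across an exon edge.

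The libraries held 17473874 to 17888110 fragments on listed genes in CTR and 17710376 to 18480047 in miR-8485. Pairs of libraries of 1 group differed by a chi-square per gene of 2.75 to 10.5, and pairs across the groups by 61 to 70.3, where counting error alone gives about 1. The markers of colorectal epithelial cells EPCAM (127 to 148 FPKM), KRT8 (543 to 873 FPKM), KRT18 (286 to 609 FPKM), KRT19 (747 to 1230 FPKM) and CDH1 (18.7 to 20.4 FPKM) were present in every library, whereas VIL1, a microvillus protein of mature enterocytes, was at most 0.0639 FPKM. The 6 epithelial markers summed to 2598 to 2822 FPKM in CTR and 1724 to 1808 FPKM in miR-8485. This difference lay mainly in the keratins. KRT8 spanned 817 to 873 FPKM in CTR and 543 to 561 FPKM in miR-8485. KRT18 spanned 539 to 609 and 286 to 297 FPKM, and KRT19 1095 to 1230 and 747 to 801 FPKM, respectively. EPCAM (128 to 148 FPKM in CTR, 127 to 134 FPKM in miR-8485), CDH1 and VIL1 overlapped between the groups. The part of the keratin difference in the results was not tested. The markers of other cell types were near 0 in both groups. The 3 leukocyte markers summed to 0.117 to 0.647 FPKM in CTR and 0.251 to 0.472 FPKM in miR-8485, with CD3E at 0. The 2 endothelial markers summed to 0.139 to 0.231 FPKM and 0.131 to 0.229 FPKM, and the 3 fibroblast markers to 0.00812 to 0.114 FPKM and 0.0244 to 0.0385 FPKM, with DCN at 0.

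The expressed host genes were low-abundance transcripts. Only MIR222HG (10.1 FPKM over all libraries) and MIR210HG (6.38 FPKM) reached a mean of 5 FPKM, 11 reached 1 FPKM, and the other 5 lay between 0.5 and 1 FPKM. The median of the 16 host genes was 1.21 FPKM, beside 4.48 FPKM for the 14606 genes at or above 0.5 FPKM. The level of 0.5 separated close neighbours: MIR4527HG was just inside at 0.596 FPKM, and MIR4453HG (0.463 FPKM) and MIR3936HG (0.454 FPKM) were just outside. MIR4527HG passed through its miR-8485 libraries. By the annotation in the table, 11 of the 16 were long intergenic noncoding RNAs, and the others were 2 processed transcripts, 1 sense intronic RNA, 1 sense overlapping RNA and 1 gene still to be experimentally checked. They lay on 12 chromosomes, 3 of them on chromosome 11, and their gene lengths ran from 350 to 19385 bases with a median of 3239.

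**Figure D1:**
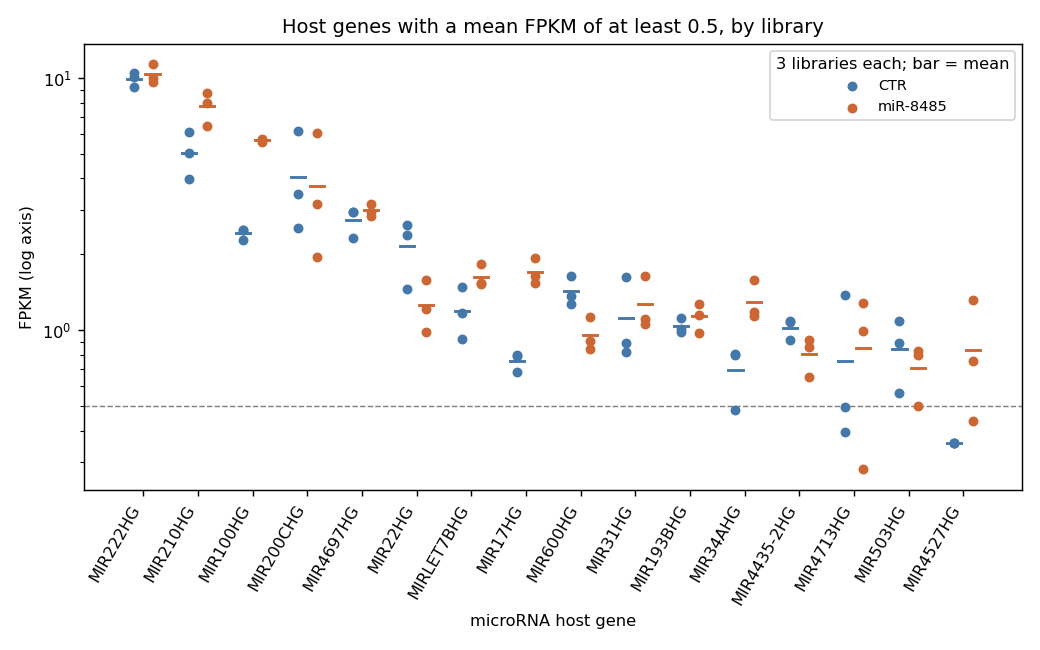
FPKM on a log axis of the 16 microRNA host genes with a mean of at least 0.5 FPKM (dashed line), ordered by mean, with 1 point per library, CTR in blue and miR-8485 in orange, and a bar at each group mean (n = 3). The 3 miR-8485 libraries of MIR100HG sit together between 5.60 and 5.76 FPKM, above CTR libraries between 2.29 and 2.50 FPKM, whereas those of MIR200CHG spread across the whole range of the CTR libraries.

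MIR100HG and MIR17HG, the hosts of the miR-100/let-7a-2/miR-125b-1 and miR-17-92 clusters, were upregulated more than 2-fold, MIR34AHG and MIR210HG were upregulated by less, and MIR600HG and MIR22HG were downregulated. The test was limma on log2(FPKM + 0.1) over 14606 genes, two-sided, with Benjamini-Hochberg adjustment and a threshold of 0.05 (a fold change on this scale understates the change of a low gene). Of the 16 host genes, 4 were upregulated, 2 were downregulated and 10 did not pass the threshold. The 37.5% that passed stood beside 53.1% of all tested genes, 26.2% upregulated and 26.9% downregulated. The host genes are long noncoding transcripts for the most part, and of the 1563 tested genes of long noncoding biotypes 37.8% passed, 30.3% upregulated and 7.49% downregulated. All these shares include genes that reach a mean of 0.5 FPKM only through their higher group. Among the host genes the shares were 25% upregulated and 12.5% downregulated. The total was thus close to that of the long noncoding genes, among which the host genes are counted. It was below that of all genes, but with 16 host genes nothing particular is read from this. After rescaling to TPM (values scaled to the same sum in every library), the same 4 and 2 calls were counted among the host genes, whereas over all genes the upregulated share of calls fell from 49.3% to 36.1%.

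**Figure D2:**
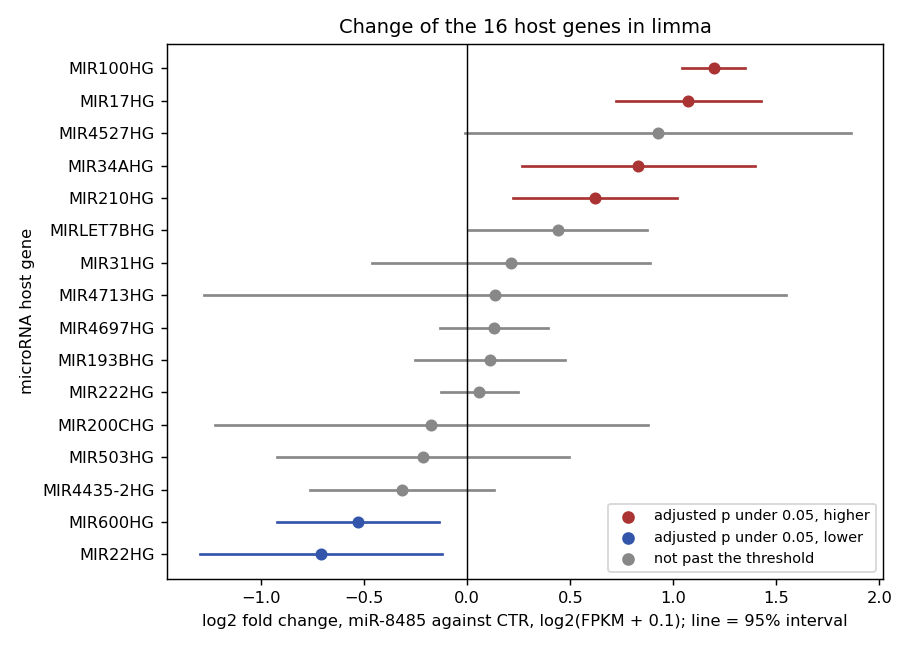
Log2 fold change of each of the 16 expressed host genes, miR-8485 against CTR, on log2(FPKM + 0.1), with its 95% interval from limma as a line, red for upregulated and blue for downregulated genes at an adjusted p under 0.05 and grey for the rest. The interval of MIR100HG, 1.04 to 1.35, is the shortest of the upregulated genes, and those of MIR4713HG and MIR200CHG cross 0 by the widest margins.

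MIR100HG lies on the minus strand of chromosome 11 at 122028327 to 122556721 (hg38), and all 3 of its named hairpins, MIR125B1 at 122099757 to 122099844, MIRLET7A2 at 122146522 to 122146593 and MIR100 at 122152229 to 122152308, lie in introns. Its transcript has been linked to drug resistance of colorectal cancer cells, and let-7 and miR-125b are known as repressors of growth and developmental genes. It measured 2.50, 2.49 and 2.29 FPKM in CTR, against 5.60, 5.68 and 5.76 FPKM in miR-8485. The groups did not overlap and each was narrow. The mean went from 2.43 ± 0.122 to 5.68 ± 0.0774 FPKM (SD, n = 3), a 2.34-fold rise. The log2 fold change was 1.195 with an SE of 0.06 and an adjusted p of 1.71e-05 in limma. These values rested on 802 to 875 fragments in CTR and 1950 to 2125 in miR-8485, the most of any host gene. Of the 14606 tested genes, 505 had a larger rise.

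MIR100HG held most of the difference between the groups in fragments on host genes. The 62 host genes together held 2945, 2889 and 2799 fragments in CTR, against 4417, 4237 and 4427 in miR-8485. MIR100HG made up 28.7% to 30.2% of these fragments in CTR and 44.2% to 48% in miR-8485. The other host genes summed to 1997 to 2070 fragments and 2245 to 2467 fragments, respectively. Fragments rise with gene length, and MIR100HG was the longest of the expressed host genes at 19385 bases, beside a median of 3239. Its share of fragments is therefore not its share of transcripts.

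MIR17HG, on the plus strand of chromosome 13 at 91347820 to 91354579, carries the miR-17-92 cluster, a growth-promoting group of microRNAs whose 6 hairpins lie in 1 exonic stretch from 91350605 to 91351391. It is known as a target of MYC and of E2F factors. It measured 0.794, 0.681 and 0.791 FPKM in CTR and 1.64, 1.93 and 1.53 FPKM in miR-8485. Every miR-8485 library was above every CTR library. The mean went from 0.755 ± 0.0646 to 1.70 ± 0.206 FPKM (SD, n = 3), a 2.25-fold rise. The log2 fold change was 1.07 with an SE of 0.15 and an interval of 0.72 to 1.43 (adjusted p = 0.000908, limma). This gene was counted from 43 to 50 fragments per CTR library and 102 to 122 per miR-8485 library. MIR100HG and MIR17HG were the only host genes that passed the threshold under all 16 alternative settings, with adjusted p-values of 1.07e-16 to 0.000313 and 2.88e-05 to 0.00569.

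MIR34AHG, on the minus strand of chromosome 1 at 9148011 to 9198906, carries miR-34a, a microRNA that restrains the cell cycle, in an exon at 9151668 to 9151777. It measured 0.803, 0.800 and 0.483 FPKM in CTR and 1.59, 1.14 and 1.18 FPKM in miR-8485. CTR replicate 3 was the lowest library and miR-8485 replicate 1 the highest, and the groups did not overlap. The mean went from 0.695 ± 0.184 to 1.30 ± 0.249 FPKM (SD, n = 3), and the log2 fold change was 0.83 with an SE of 0.24 (adjusted p = 0.0228, limma). The call was lost when miR-8485 replicate 1 was left out (adjusted p = 0.083) and in the fit of all genes above 0 (adjusted p = 0.0598). LNCTAM34A, a noncoding gene on the opposite strand that shares 431 exonic bases with it, measured 0.533 and 0.517 FPKM and did not pass (adjusted p = 0.780, limma).

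MIR210HG, on the minus strand of chromosome 11 at 565660 to 568457, carries miR-210, the microRNA best known for its induction by hypoxia, in an intron at 568089 to 568198. It measured 6.09, 5.03 and 3.98 FPKM in CTR and 8.76, 7.96 and 6.47 FPKM in miR-8485. The lowest miR-8485 library lay just above the highest CTR library. The mean went from 5.03 ± 1.06 to 7.73 ± 1.16 FPKM (SD, n = 3), with a log2 fold change of 0.62, an SE of 0.17 and an adjusted p of 0.0182 in limma. Without miR-8485 replicate 1 or replicate 2 the adjusted p was 0.0665 and 0.0577, and without a filter on low genes it was 0.0509.

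MIR600HG, on the minus strand of chromosome 9 at 123109494 to 123115477, carries miR-600 in an exon at 123111546 to 123111643. It measured 1.37, 1.27 and 1.63 FPKM in CTR and 0.903, 0.841 and 1.13 FPKM in miR-8485. It was the only expressed host gene with every miR-8485 library below every CTR library. The mean fell from 1.43 ± 0.186 to 0.958 ± 0.153 FPKM (SD, n = 3), and the log2 fold change was -0.53 with an SE of 0.17 (adjusted p = 0.0313, limma). The call was lost without CTR replicate 1 (0.0607), CTR replicate 3 (0.101), miR-8485 replicate 1 (0.083) or miR-8485 replicate 2 (0.089), and in the fit of all genes above 0 (adjusted p = 0.0784). STRBP, which encodes an RNA-binding protein, overlaps MIR600HG on the same strand and shares 254 exonic bases with it. STRBP also fell, from 4.44 to 3.78 FPKM (log2 fold change -0.23, adjusted p = 0.0138, limma). Reads from the shared bases cannot be told apart between the 2 genes. MIR600HG is annotated as sense intronic, and its gene length of 5984 bases is its whole span. Reads of unspliced STRBP RNA within that span cannot be told apart from it either.

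MIR22HG, on the minus strand of chromosome 17 at 1711493 to 1717174, carries miR-22, whose sequence is not shown. Its transcript is known to respond to many kinds of cell stress. It measured 2.38, 2.61 and 1.46 FPKM in CTR and 1.58, 0.981 and 1.21 FPKM in miR-8485. CTR replicate 3 lay below miR-8485 replicate 1, so the groups overlapped. The mean went from 2.15 ± 0.607 to 1.26 ± 0.305 FPKM (SD, n = 3), and the log2 fold change of -0.71 had an SE of 0.25 and an adjusted p of 0.0465 in limma. This call was the weakest of the 6: the adjusted p was 0.126 without CTR replicate 1, 0.141 without CTR replicate 2, 0.137 without miR-8485 replicate 2, 0.107 without miR-8485 replicate 3, 0.117 without a filter and 0.0739 without a variance trend. WDR81, which overlaps it on the opposite strand with 0 shared exonic bases, moved the other way, from 4.45 to 6.41 FPKM (log2 fold change 0.52, adjusted p = 0.00527, limma). Whether reads were counted by strand was not given in the sources used here.

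The most abundant host gene showed no detectable change. MIR222HG, on the minus strand of chromosome X at 45745211 to 45770274, carries miR-221 and miR-222, which share the seed GCUACAU and are known to repress the cell cycle inhibitor CDKN1B.
hsa-miR-221-3p: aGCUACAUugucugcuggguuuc
hsa-miR-222-3p: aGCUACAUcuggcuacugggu

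MIR222HG measured 10.5, 10.1 and 9.19 FPKM in CTR and 11.4, 10.05 and 9.67 FPKM in miR-8485. The groups overlapped in part, with CTR replicate 3 below and miR-8485 replicate 1 above all libraries of the other group. The means were 9.93 ± 0.680 and 10.4 ± 0.884 FPKM (SD, n = 3), and the interval of the log2 fold change, -0.13 to 0.25 around 0.06, was among the narrowest of the host genes (adjusted p = 0.567, limma). A change of the size seen for MIR100HG or MIR17HG lay outside this interval. The small difference changed sign after rescaling to TPM (-0.056).

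MIR200CHG, on the plus strand of chromosome 12 at 6963246 to 6964447, carries miR-200c and miR-141, which repress ZEB1 and ZEB2 and keep epithelial cells epithelial.
hsa-miR-200c-3p: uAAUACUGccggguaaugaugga
hsa-miR-141-3p: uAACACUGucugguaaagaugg

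MIR200CHG measured 2.54, 3.47 and 6.16 FPKM in CTR and 6.04, 3.16 and 1.95 FPKM in miR-8485. Each group held 1 library near 6 FPKM and the ranges overlapped almost entirely. With a gene length of 350 bases, these levels came from 13 to 39 fragments per library. The means were 4.06 ± 1.88 and 3.72 ± 2.10 FPKM (SD, n = 3), and the interval of the log2 fold change, -1.22 to 0.88, left room for more than a 1.5-fold change in either direction (adjusted p = 0.766, limma).

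The let-7 host MIRLET7BHG, on the plus strand of chromosome 22 at 46053869 to 46113928, carries let-7a-3 and let-7b in exons. It measured 0.920, 1.17 and 1.49 FPKM in CTR and 1.83, 1.53 and 1.54 FPKM in miR-8485. The groups did not overlap, but CTR replicate 3 lay close to the lower miR-8485 libraries. The log2 fold change was 0.44 with an interval of 0.0098 to 0.87, and it did not pass after adjustment (adjusted p = 0.0795, limma). It did pass when the fragments recovered from the FPKM values were fitted with voom (adjusted p = 0.0158) and when CTR replicate 3 was left out (0.0284). PRR34-AS1, which overlaps it on the same strand with 52 shared exonic bases, rose from 1.76 to 2.70 FPKM (log2 fold change 0.57, adjusted p = 0.0298, limma).

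The remaining host genes above 1 FPKM did not pass the threshold. MIR4697HG, on the minus strand of chromosome 11 at 133896438 to 133901601, measured 2.94, 2.31 and 2.94 FPKM in CTR and 3.18, 2.93 and 2.85 FPKM in miR-8485, with a log2 fold change of 0.13 and an interval of -0.13 to 0.39 (adjusted p = 0.355, limma). MIR193BHG, on the plus strand of chromosome 16 at 14301389 to 14331067, carries miR-193b and miR-365a and measured 1.12, 0.987 and 1.01 FPKM in CTR and 1.27, 0.978 and 1.15 FPKM in miR-8485 (log2 fold change 0.11, interval -0.25 to 0.47, adjusted p = 0.579, limma). MIR31HG, on the minus strand of chromosome 9 at 21455642 to 21559669 in the interferon gene cluster, measured 0.893, 0.816 and 1.63 FPKM in CTR and 1.64, 1.11 and 1.06 FPKM in miR-8485. In all 3 genes the groups overlapped. The values of MIR31HG came from 11 to 22 fragments per library (log2 fold change 0.21, adjusted p = 0.563, limma). Inside its span, IFNE, an epithelial interferon gene on the same strand with 0 shared exonic bases, fell from 1.48 to 0.644 FPKM (log2 fold change -1.13, adjusted p = 0.00875, limma). The pseudogene IFNWP19 shares 461 exonic bases with MIR31HG on the opposite strand. It fell from 1.21 to 0.449 FPKM (log2 fold change -1.23, adjusted p = 0.0045, limma).

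Between 0.5 and 1 FPKM, MIR34AHG passed the threshold and the other 4 host genes did not. MIR4527HG had the largest difference of these, with 9 fragments in each CTR library, against 19, 11 and 35 in miR-8485 (log2 fold change 0.92, SE 0.40, adjusted p = 0.0887, limma). It passed only without miR-8485 replicate 2 (adjusted p = 0.0261). MIR4435-2HG, whose span holds BCL2L11 on the opposite strand, measured 0.915 to 1.08 FPKM in CTR and 0.651 to 0.916 FPKM in miR-8485 (log2 fold change -0.32, adjusted p = 0.198, limma). With voom on recovered fragments its adjusted p was 0.0297. BCL2L11, which encodes the pro-apoptotic protein BIM, shares 727 exonic bases with it on the other strand and fell from 4.69 to 2.59 FPKM (log2 fold change -0.83, adjusted p = 0.000309, limma). MIR4713HG (3 to 14 fragments per library) and MIR503HG (16 to 33) had log2 fold changes of 0.13 and -0.21 with SEs of 0.60 and 0.30.

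The 16 host genes differed from each other in direction, and their median shift depended on single libraries. MIR4527HG, which reached 0.5 FPKM in its miR-8485 libraries but not in CTR, was left out of the counts of direction. Of the 15 host genes at 0.5 FPKM in both groups, 10 had a log2 fold change above 0, with a median of 0.13, beside 0.32 for long noncoding genes chosen in the same way. Libraries did not overlap between the groups in 5 of these 15 with miR-8485 above (33.3%, beside 30.8% of all genes at that level in both groups and 35.2% of long noncoding ones) and in 1 with miR-8485 below (6.67%, beside 32% and 8.83%). The shares of the host genes were thus near those of long noncoding genes. The median log2 fold change of all 16 was also 0.13, and that of all tested genes was 0.0061. The median of the host genes relative to the CTR means was 0.56 in miR-8485 replicate 1 but 0.084 and 0.029 in replicates 2 and 3. The long noncoding genes as a whole were at 0.43, 0.41 and 0.35 in the same libraries. These medians by library include genes that reach 0.5 FPKM only in their higher group, MIR4527HG among them. Of the 1563 long noncoding genes, 1200 reached it in both groups, and their median log2 fold change was 0.32, beside 0.39 for all 1563. Replicate 1 was the highest of the 3 miR-8485 libraries for 9 of the 16 host genes. Without it the median log2 fold change of the host genes was 0.028 and 2 host genes were upregulated, MIR100HG and MIR17HG. The median was 0.13, 0.055 and 0.33 without CTR replicate 1, 2 or 3, and 0.17 and 0.26 without miR-8485 replicate 2 or 3. The summed level of the 16 genes was 35.2, 34.5 and 37.0 FPKM in CTR and 48.6, 41.7 and 38.5 FPKM in miR-8485.

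**Figure D3:**
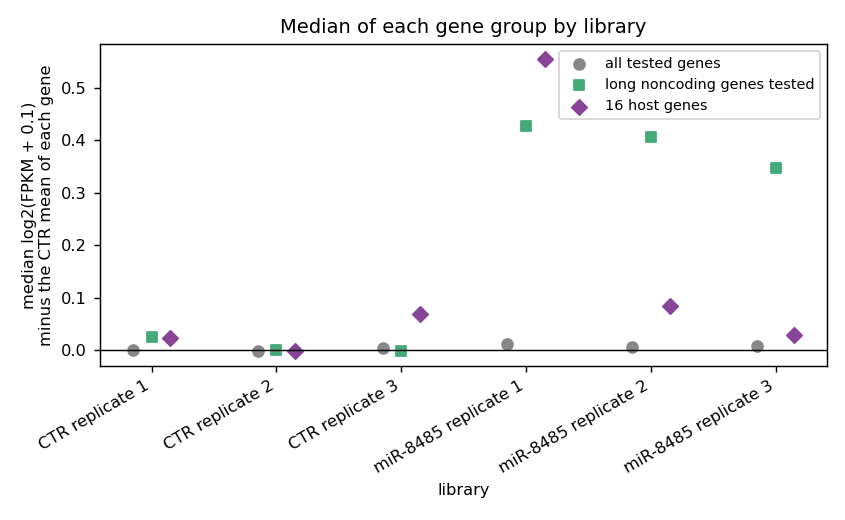
Median, over genes, of log2(FPKM + 0.1) minus the CTR mean of each gene, for each of the 6 libraries, for all tested genes (grey), long noncoding genes (green) and the 16 host genes (purple). The host genes stand at 0.56 in miR-8485 replicate 1 and at 0.084 and 0.029 in the other miR-8485 libraries, whereas the long noncoding genes stay between 0.35 and 0.43. Genes that reach 0.5 FPKM only in their higher group are included.

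The precision of single host genes was low compared with that of the table. Their median SE on the log2 scale was 0.19, beside 0.091 for all tested genes and 0.29 for long noncoding genes. At an unadjusted p under 0.05, 7 of the 16 differed (43.8%), beside 58.8% of all tested genes. With voom on the recovered fragments, 5 host genes were upregulated and 3 downregulated, where 57.6% of the same genes passed in all, 28.9% upregulated and 28.8% downregulated.

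**Figure D4:**
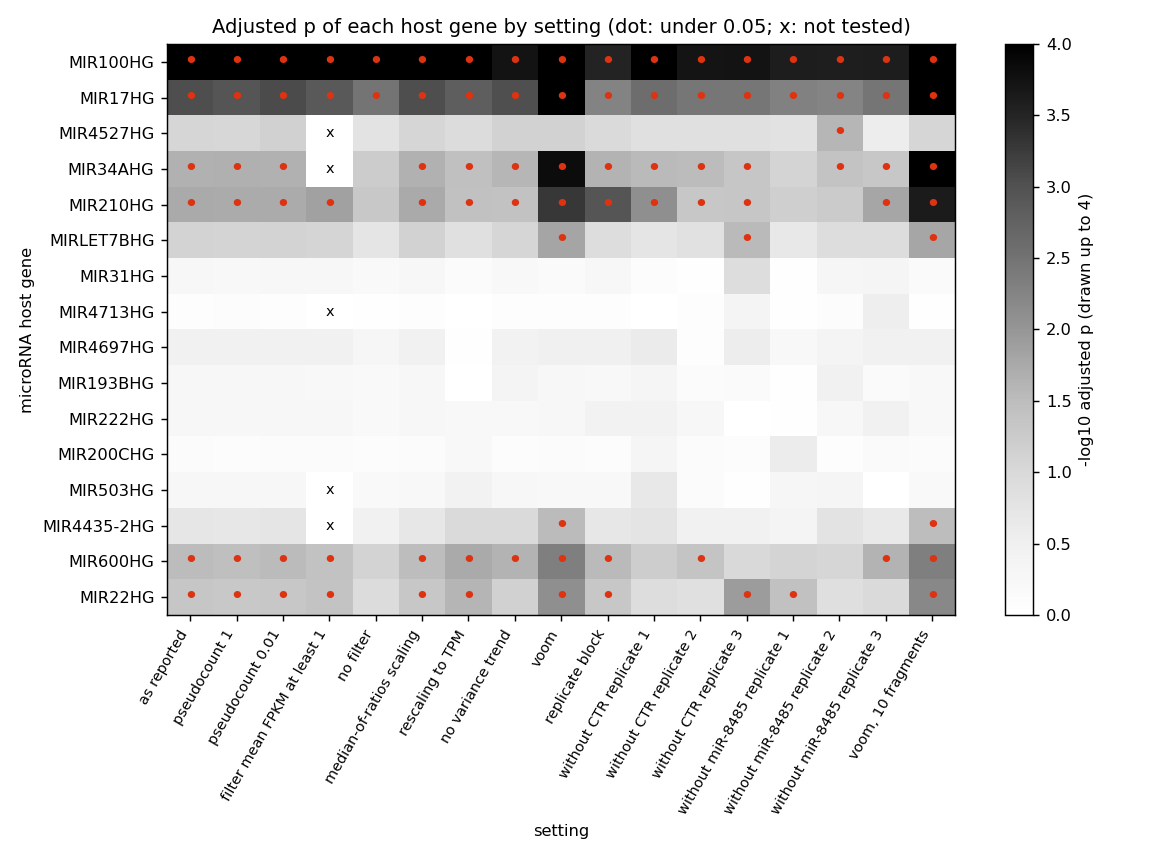
Adjusted p of the 16 host genes (vertical) under the reported setting and the alternatives (horizontal), in grey by -log10 of the adjusted p drawn up to 4, with a red dot where it was under 0.05 and an x where the gene was below that filter. MIR100HG and MIR17HG carry a dot in every column, MIR34AHG and MIR210HG each carry one in 13 alternatives, MIR600HG in 11 and MIR22HG in 10.

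Among the host genes below 0.5 FPKM, 22 were at 0 in all 6 libraries, among them the hosts of tissue-restricted microRNAs such as MIR122HG (liver), MIR124-2HG (neurons) and MIR1-1HG (muscle). Another 16 had at most 10 fragments over all libraries, among them MIR155HG, the host of a leukocyte microRNA, with 5. The 5 with the most fragments were MIR4453HG (153), MIR3936HG (152), MIR29B2CHG (86), MIR762HG (59) and MIR181A2HG (24). MIR4453HG, on the plus strand of chromosome 4 at 152536264 to 152539263, had 12, 15 and 12 fragments in CTR and 31, 31 and 52 in miR-8485. Its levels were 0.240 ± 0.0317 and 0.686 ± 0.194 FPKM (SD, n = 3). In the fit of all 31768 genes above 0 its log2 fold change was 1.19 (adjusted p = 0.0315, limma), where 22.1% of genes passed, 10.8% upregulated and 11.3% downregulated. Among the 21396 genes of 10 or more fragments, fitted with voom, its adjusted p was 0.0022, where 41.9% passed, 21.1% upregulated and 20.8% downregulated. MIR3936HG measured 22, 24 and 22 fragments in CTR and 23, 33 and 28 in miR-8485 (adjusted p = 0.593 without a filter, limma). MIR29B2CHG, the host of miR-29b-2 and miR-29c, measured 14, 12 and 7 fragments and 25, 15 and 13 fragments. MIR762HG and MIR181A2HG had every miR-8485 library above CTR or level with its highest fragment count, and neither passed without a filter (adjusted p = 0.240 and 0.178, limma).

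The rows of the hairpins themselves held few fragments in these libraries. Of the 29 hairpins of expressed host genes with a row of their own, 21 were at 0 in every library. MIR221, at the edge of an exon of MIR222HG, had 55, 45 and 48 fragments in CTR and 50, 43 and 61 in miR-8485, and MIR222, in an intron, had at most 4. MIR210 had 0 to 5 fragments, while MIR210HG around it had 167 to 365. MIR141 had 0 in each CTR library and 6, 4 and 0 in miR-8485. The 6 hairpins of MIR17HG were at 0. All hairpins placed in an exon of an expressed host were at 0, and the rows above 0 lay in introns or at an exon edge. A hairpin in an exon shares its bases with its host. How reads over both were assigned was not given in the sources used here, so a 0 there does not show absence of reads. These rows cannot stand for mature microRNAs, which are shorter than the fragments of such libraries.

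The word TGTGTGT, which pairs with bases 2 to 8 of the mimic, was counted in the canonical GENCODE 44 transcript, read on the transcribed strand only, with overlapping copies counted. It was present in 4 of the 15 host genes with such a transcript, with 2 copies each in MIR210HG and MIR600HG and 1 each in MIR4435-2HG and MIR503HG. This is 26.7% of the host genes, beside 31.9% of 14527 tested genes and 14.7% of 1507 long noncoding genes. The transcripts differed in length, with medians of 1380, 2710 and 840 bases, respectively. Of the 4 carriers, MIR210HG was upregulated and MIR600HG downregulated, and the other two did not pass. The canonical transcripts of MIR100HG, MIR17HG, MIR34AHG and MIR22HG held 0 copies. These transcripts were 1794, 747, 4211 and 2876 bases long, where the gene lengths were 19385, 3492, 8702 and 2986. The other exonic bases were not searched, so copies there would not be seen.

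Of 18 listed genes that process microRNAs, 16 were tested, 2 were upregulated, 5 were downregulated and 9 did not pass, with a median log2 fold change of -0.064. The 43.8% that passed (12.5% upregulated and 31.2% downregulated) were near the 53.1% of all tested genes (26.2% and 26.9%), and nothing particular to this list is read from the count. XPO5, the exporter of hairpins, rose (0.43). AGO2 (-0.83), AGO3 (-0.65) and TNRC6B (-0.59), which act in silencing by the mature strand, fell on the log2 scale, as did DICER1 (-0.18) and RAN (-0.17). The other silencing genes of the list, AGO1 (0.022), AGO4 (-0.22), TNRC6A (0.11) and TNRC6C (-0.15), did not pass. The nuclear enzyme DROSHA rose by 0.29. LIN28A and LIN28B, which block the maturation of let-7, were below 0.5 FPKM.

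Hosts outside the symbol rule were counted in the same fit. Of 35 protein-coding genes listed as hosts of intronic microRNAs, 32 were tested. The position and strand of these microRNAs were not checked here. Of the genes tested, 8 were upregulated, 8 were downregulated and 16 did not pass, with a median log2 fold change of -0.015. The 50% that passed, 25% in each direction, was near the share of all tested genes, 53.1%. The largest changes were those of SKA2, a kinetochore gene that carries miR-301a (15.8 to 6.88 FPKM, log2 fold change -1.19), SMC4, the condensin gene that carries miR-15b and miR-16-2 (9.13 to 4.03 FPKM, -1.16), PANK1, a coenzyme A synthesis gene that carries miR-107 (1.44 to 3.29 FPKM, 1.14), GPC1 (-0.81) and LPP (-0.77). After rescaling to TPM, 3 of these hosts were upregulated and 11 downregulated. Over all 14606 tested genes, 2788 were then upregulated and 4931 downregulated, so nothing particular to these hosts is read from the counts. Of 5 noncoding hosts with other names, 3 were tested. FTX (log2 fold change 0.76, adjusted p = 0.0130, limma) and PVT1 (0.58, adjusted p = 6.56e-05, limma) rose, and DLEU2, the host of miR-15a and miR-16-1, did not pass (0.26, adjusted p = 0.141, limma).

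Factors known to act on these host genes changed in both directions. MYC, which acts on MIR17HG, rose from 102 to 123 FPKM (log2 fold change 0.27, adjusted p = 0.0087, limma). E2F1 (13.7 to 8.35 FPKM, -0.72) and E2F3 (13.2 to 7.21 FPKM, -0.86), which act on the same host, fell. HIF1A, the hypoxia factor that acts on miR-210, fell from 29.5 to 19.9 FPKM (-0.57). These are mRNA levels. The protein and activity of the factors were not measured here, and their part in the changes of the host genes was not tested. ZEB1 and ZEB2, which repress the miR-200 genes, were below 0.5 FPKM. The rise of MYC did not pass after rescaling to TPM. In these bulk libraries, a change in RNA per cell and a change in the share of cells that make it cannot be told apart.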

How the data were processed

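RNA-seq was performed on 3 CTR and 3 miR-8485 libraries of HCT116 cells. The submitters' processing notes name hg38, HISAT2 2.0.5 and featureCounts 1.5.0-p3. The values deposited by the authors were FPKM per gene, with no further scaling between libraries. In every library 100% of the values above 0 were whole multiples of 1 fragment (tolerance 0.2), so fragments were recovered, and they set the precision of low genes. Libraries were grouped by sample titles.

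Differential expression was tested on log2(FPKM + 0.1) with limma 3.58.1 (R 4.3.3; variance trend, two-sided, Benjamini-Hochberg adjustment) in the 14606 genes with a mean of at least 0.5 FPKM. The other calculations used Python 3.11.15, numpy 2.4.6, pandas 2.3.3 and matplotlib 3.10.9. The fits were tested on simulated data. The alternatives were other pseudocounts, filters and scalings, no variance trend, voom, a replicate block and leaving out each library. A voom fit of genes with at least 10 fragments was chosen after seeing the data.

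The host genes and gene lists were chosen with earlier results of these data known. Named were the host genes past the threshold or at 1 FPKM and over, the 5 with the most fragments below 0.5 FPKM, up to 5 largest changes in each other list, and the factors known to act on host genes. The result of 1 gene of these lists is not reported here. MIR4527HG, MIR4435-2HG, MIR4713HG, MIR503HG, some host genes at or near 0, DROSHA, DICER1 and RAN, the hairpins and the overlapping genes were named after their values were seen. So were AGO1, AGO4, TNRC6A and TNRC6C. Of 1506 microRNA rows with a RefSeq hairpin of the same symbol, 1498 had the same start and end.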

Additional observations from a re-analysis of the deposited data

How the results depend on the processing

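The median log2 fold change of the host genes, 0.13 as reported, was 0.088 with a pseudocount of 1, 0.024 after rescaling to TPM, and 0.028 to 0.33 when 1 library was left out. The host genes downregulated, 2 as reported, were 0 without a filter, 1 without a variance trend and 0 to 1 when 1 library was left out. The host genes upregulated, 4 as reported, ranged from 2 to 5 when 1 library was left out. Rescaling to TPM, which shifted the median of all tested genes by -0.11, gave 3 upregulated protein-coding hosts and 1 upregulated factor, and over all genes 2788 upregulated and 4931 downregulated in place of 3824 and 3936. With a filter at 1 FPKM, 1 other noncoding host was upregulated. When 1 library was left out, protein-coding hosts ranged from 5 to 8 upregulated and 5 to 8 downregulated, and genes of microRNA processing from 3 to 4 downregulated. The causes were not tested. The log2 fold change of MIR222HG reversed to -0.056 after rescaling to TPM. When 1 library was left out it ran from -0.0090 to 0.11, that of MIR4713HG from -0.23 to 0.70 and that of MIR200CHG from -0.59 to 0.20, and none of these 3 genes passed in any setting. Fragment counts limit the short or low host genes, such as MIR200CHG (13 to 39 fragments per library), MIR31HG (11 to 22) and MIR4713HG (3 to 14).

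No pairing of the libraries by replicate number was seen. The deviations from the group means of same-numbered libraries correlated at 0.037, -0.0095 and -0.026. Those of libraries with different numbers correlated at -0.052 to 0.063. These correlations cannot show whether same-numbered libraries were processed together. With the replicate block, 4 host genes were upregulated and 2 downregulated, as without it, and over all genes 3811 were upregulated and 3848 downregulated.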
